A study of Mus musculus with 6 samples.

Results

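The Notch pathway genes described here are 10 genes chosen by symbol: the 4 receptors Notch1, Notch2, Notch3 and Notch4, the ligands Jag1 and Dll1, and the target genes Hes1, Hey1, Hey2 and Heyl. All 10 were found by gene name in the deposited annotation, among 54532 genes in the count table, and 9 of them were among the 14624 genes with enough counts to be tested. RNA was sequenced from primary wild type mouse bone marrow mesenchymal stromal cells (BMSCs) held for 7 days in osteogenic medium. The 3 Ni libraries came from cells given 0.1 μM nickel ion as NiCl2, and the 3 control libraries from cells without added nickel. No source used here says whether replicates were separate cultures or animals, so p-values measure the spread between these libraries, which may be technical. Both groups shared the medium, which held 50 μg/mL ascorbic acid, 10 mM β-glycerophosphate and, by the sample labels, 100 nM dexamethasone; the study's methods state a lower dexamethasone concentration. The age, sex and strain of the marrow donors are not given in the sources used here.

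Notch signaling passes between touching cells. A ligand of the Jagged or Delta-like family on one cell pulls on a Notch receptor on its neighbour, the receptor is cut by an ADAM protease and then by γ-secretase, and the released intracellular part joins the DNA-binding protein RBPJ to switch on genes such as Hes1 and the Hey genes, which encode transcriptional repressors. In marrow stroma the pathway is known for holding progenitors back from osteoblast differentiation, and Hey1 is also known as a target of BMP signaling in osteoblasts.

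The libraries held from 16101033 to 18642504 counts. Across the genes tested, control replicate 3 lay closer to the Ni libraries (mean distance, 1 minus Pearson's r, of 0.0131) than to the other controls (0.0221), so values without it are given for some genes. Stromal genes were abundant, led by Col1a1 at 682 to 2180 FPKM (fragment counts scaled to gene length and to library size), although the stromal surface marker Thy1 reached only 0.29 to 0.476 FPKM. Macrophage genes were abundant as well, led by Lyz2 at 7250 to 11400 FPKM and C1qb at 1800 to 2420 FPKM. In such bulk RNA, fewer cells of a type and less RNA per cell cannot be told apart.

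Among the members, Notch2 was the most abundant and the 3 Hey genes and Dll1 were the least abundant, with 2 to 26 counts in each library. On the FPKM scale, which divides by gene length and so allows genes to be compared, the mean level over the 6 libraries was 15.5 ± 1.68 (SD, n = 6) for Notch2, 6.07 ± 0.441 for Notch1, 3.88 ± 0.538 for Hes1, 3.34 ± 0.285 for Notch3 and 2.74 ± 0.415 for Jag1. The levels then dropped to 0.609 ± 0.0906 FPKM for Notch4, 0.285 ± 0.0895 for Hey1, 0.192 ± 0.066 for Heyl, 0.121 ± 0.0814 for Hey2 and 0.0541 ± 0.025 for Dll1. Notch2 thus exceeded 77.7% of the genes tested in mean FPKM and Hes1 exceeded 44.0%, whereas Hey1 exceeded 5.53%.

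Within this order, 4 of the 9 neighbouring pairs kept the same order in all 6 libraries: Notch2 over Notch1 by 2.56-fold, Notch1 over Hes1 by 1.56-fold, Jag1 over Notch4 by 4.5-fold and Notch4 over Hey1 by 2.14-fold. For each of these pairs the exact sign-flip permutation test of the difference in FPKM within libraries gave p = 0.03125, the smallest that 6 libraries allow, and 0.0703 after Benjamini-Hochberg adjustment over the 9 pairs. None of the 9 pairs therefore passed an adjusted p of 0.05. Hes1 was above Notch3 in 5 of 6 libraries (adjusted p = 0.113 in the same exact test) and Notch3 above Jag1 in 5 of 6 (0.141). Hey1, Heyl, Hey2 and Dll1 were ordered differently among the libraries (0.281 for each pair). On these few counts, Heyl was above Hey1 and Dll1 above Hey2 in every control, with both orders reversed in every Ni library. The test pools both groups and does not address that reversal. Both pairs were singled out after the values were seen. Hey2 passed the low-count filter through its Ni libraries alone and Dll1 did not pass it, so the reversal is a description and no support for a group difference.

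**Figure D1:**
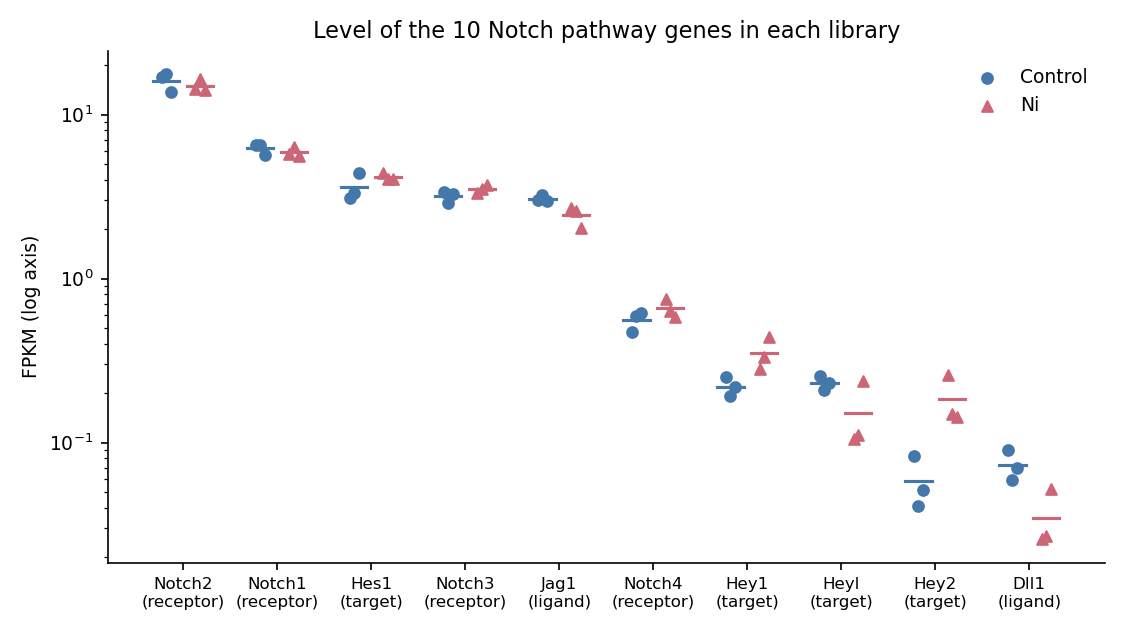
FPKM of each member in each library on a logarithmic axis, with circles for the 3 controls, triangles for the 3 Ni libraries and a bar at each group's mean. Notch2 sits highest at 13.7 to 17.7 FPKM, and the groups stand apart for Jag1, Hey1, Hey2 and Dll1. Of all genes tested, 14.7% had groups that did not overlap in counts scaled to library size. Dll1, with 2 to 7 counts per library, was not tested, and Hey2 passed the low-count filter through its Ni libraries alone.

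The receptors differed little between the groups. Notch2 (ENSMUSG00000027878; chromosome 3 of GRCm38, 98013527 to 98150361) stood at 16.9, 17.7 and 13.7 FPKM in the controls, in the order of their replicate numbers, which is kept throughout, and at 14.3, 16.5 and 14.1 FPKM with Ni. The groups overlapped, and control replicate 3 was the lowest of all libraries. The fitted fold was 0.93 of the control level with a 95% interval of 0.773 to 1.12 (log2 fold change -0.10, SE 0.12, adjusted p = 0.745 in edgeR's quasi-likelihood test). Notch1 (ENSMUSG00000026923; chromosome 2, 26457903 to 26516663) had 6.504, 6.54 and 5.66 FPKM in the controls and 5.76, 6.33 and 5.59 FPKM with Ni. Its groups overlapped in the same manner, with a fitted fold of 0.944 (95% interval 0.81 to 1.10, adjusted p = 0.755). Without control replicate 3 the log2 fold change in edgeR was -0.20 for Notch2 (adjusted p = 0.197) and -0.14 for Notch1 (adjusted p = 0.375).

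Notch3 (ENSMUSG00000038146; chromosome 17, 32120820 to 32166880), the receptor best known from pericytes and smooth muscle, had 3.38, 2.88 and 3.26 FPKM in the controls and 3.30, 3.50 and 3.73 FPKM with Ni, a fitted fold of 1.11 (95% interval 0.931 to 1.31, adjusted p = 0.601). Notch4 (ENSMUSG00000015468; chromosome 17, 34564268 to 34588503), best known from endothelium, had 0.471, 0.590 and 0.619 FPKM in the controls and 0.752, 0.636 and 0.587 FPKM with Ni, a fitted fold of 1.17 (95% interval 0.848 to 1.63, adjusted p = 0.665). For both, the lowest Ni library lay below the highest control. The 4 receptors therefore had 2 positive and 2 negative log2 fold changes, and the intervals exclude a change of 2-fold in either direction for each of them.

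Of the summed receptor FPKM, Notch2 made up 58.7% to 63.8% in the 6 libraries, Notch1 23.3% to 24.4%, Notch3 10.4% to 15.5% and Notch4 1.73% to 3.11%. None of these shares separated the groups (exact permutation test, two-sided, p = 0.2 for Notch1 and 0.3 for each of the others; 0.1 is the smallest p that 3 libraries against 3 allow). The summed receptor level ran from 23.2 to 27.7 FPKM over the libraries, and the groups overlapped (exact p = 0.8). Endothelial and mural markers were present beside Notch4 and Notch3. The 12 endothelial genes, with none at 0 in every library, summed to 12.8 to 17.3 FPKM in controls and 10.8 to 13.1 FPKM with Ni, led by Pecam1, which macrophages also express, at 3.76 to 8.65 FPKM and Cdh5 at 1.68 to 2.94 FPKM. The 12 mural genes, again with none at 0 in every library, summed to 398 to 798 FPKM in controls and 689 to 753 FPKM with Ni, led by Acta2 at 366 to 749 FPKM, which myofibroblasts express too, and Pdgfrb with a mean of 18.1 FPKM. Their part in the receptor levels was not tested.

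Of the ligands, Jag1 carried nearly all of the measured RNA and was lower in every Ni library than in any control. Jag1 (ENSMUSG00000027276; chromosome 2, 137081456 to 137116644), the Jagged ligand through which stromal cells and osteoblasts signal to neighbours, was counted 321, 299 and 290 times in the controls and 288, 265 and 215 times with Ni. This equals 2.99, 3.21 and 2.96 FPKM against 2.67, 2.59 and 2.03 FPKM. The controls lay close together and Ni replicate 3 was the lowest library. The fitted fold was 0.796 (95% interval 0.639 to 0.99, log2 fold change -0.33, SE 0.14). The unadjusted p was 0.042, but the adjusted p over all genes tested was 0.364 in edgeR's quasi-likelihood test. Without Ni replicate 3 the log2 fold change was -0.21, the smallest with a library left out, and without Ni replicate 1 it was -0.40. The unadjusted p was no longer under 0.05 without control replicate 1, control replicate 2 or Ni replicate 3.

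Dll1 (ENSMUSG00000014773; chromosome 17, 15367354 to 15376872), the other ligand, was counted 7, 4 and 5 times in the controls and 2, 2 and 4 times with Ni, too few to pass the filter, so it was not tested. The 3 Ni values were lower, scaled to library size, than all controls. Over the summed counts, 16 against 8, the ratio of Ni to control was 0.472 with a 95% interval of 0.175 to 1.17 that covers counting error only. That interval spans no change as well as a decrease, so these counts do not settle whether Dll1 changed. A share of 20.5% of the exon bases of Dll1 also lies in exons of A930024N18Rik on the opposite strand, and the strand setting of the counting is not given in the sources used here, so reads of the pair may not be told apart. Exons of genes on the opposite strand also cover 9.76% of the exon bases of Notch1 and 6.03% of those of Notch3. For Notch2 5.02% are shared with Gm42820 on the same strand, and for the remaining 6 members 0%.

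The 4 target genes did not move as a group: 3 had a positive and 1 a negative log2 fold change, and no adjusted p was under 0.306. Hes1 (ENSMUSG00000022528; chromosome 16, 30064384 to 30067796), the repressor read most often as an output of Notch, was counted 117, 108 and 150 times in the controls and 165, 145 and 149 times with Ni. Control replicate 3, at 4.37 FPKM, lay among the Ni libraries at 4.02 to 4.38 FPKM, above the other controls at 3.12 and 3.32 FPKM. The fitted fold was 1.15 (95% interval 0.868 to 1.53, log2 fold change 0.20, SE 0.18, adjusted p = 0.662 in edgeR). Without control replicate 3 the log2 fold change of Hes1 was 0.37 and its adjusted p 0.209.

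Hey1 (ENSMUSG00000040289; chromosome 3, 8663359 to 8667256) was counted 15, 10 and 12 times in the controls and 17, 19 and 26 times with Ni. Every Ni library was above every control, although Ni replicate 1, at 0.282 FPKM, lay just above control replicate 1 at 0.249 FPKM. The fitted fold was 1.58 (95% interval 0.865 to 2.89, log2 fold change 0.66, SE 0.39, adjusted p = 0.474 in edgeR).

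Hey2 (ENSMUSG00000019789; chromosome 10, 30832359 to 30842801), known best from the heart and arteries, had the largest fold of the members tested and the fewest counts. It was counted 7, 3 and 4 times in the controls and 22, 12 and 12 times with Ni, or 0.0827, 0.0408 and 0.0517 FPKM against 0.259, 0.149 and 0.144 FPKM. The groups did not overlap, and the lowest Ni library held 12 counts against at most 7 in a control. The fitted fold was 3.05 (95% interval 1.34 to 6.98, log2 fold change 1.61, SE 0.54). The unadjusted p was 0.012 and the adjusted p 0.306 in edgeR's quasi-likelihood test. Hey2 passed the low-count filter through its 3 Ni libraries alone, with no control at or above the filter's 0.566 CPM (counts scaled to library size), so its entry among the genes tested already required a difference. Without Ni replicate 1 its log2 fold change was 1.28 and its unadjusted p no longer under 0.05, and without control replicate 1 it was 1.95.

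Because Hey2 had this fold, the sequence just upstream of it was searched for TGGGAA, the core letters bound by RBPJ. The stretch below holds the 232 bases beyond the gene's annotated end at its 5′ side, chr10:30842802-30843033 of GRCm38.p6 (RefSeq), read on the minus strand from 5′ to 3′, with the match in capitals.

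Hey2: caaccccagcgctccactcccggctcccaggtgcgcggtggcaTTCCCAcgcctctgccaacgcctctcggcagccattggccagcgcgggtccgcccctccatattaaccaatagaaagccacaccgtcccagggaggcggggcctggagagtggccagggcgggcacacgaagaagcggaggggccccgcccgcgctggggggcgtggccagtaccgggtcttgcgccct

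The match lies on the opposite strand, so it reads as TTCCCA, from base 44 of this stretch. Of the 7 members with a RefSeq promoter entry (Notch1, Notch2, Notch3, Notch4, Jag1, Dll1 and Hey2), Hey2 alone held these letters on either strand within 250 bases upstream of the RefSeq start. Hes1, Hey1 and Heyl had no such entry, so the search does not set Hey2 apart among the targets. The letters occurred in 21.6% of all 32851 such windows and, counted by gene, in 24.1% of 27025 genes. A match is therefore common, and it describes the sequence without showing a site that is used.

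Heyl (ENSMUSG00000032744; chromosome 4, 123233556 to 123249875), a relative best known from vascular smooth muscle, went the other way in the fit. It was counted 24, 17 and 20 times in the controls and 10, 10 and 22 times with Ni, so that Ni replicates 1 and 2 lay below all controls and Ni replicate 3 among them. The fitted fold was 0.653 (95% interval 0.336 to 1.27, log2 fold change -0.61, SE 0.43, adjusted p = 0.56 in edgeR). Without Ni replicate 3 the log2 fold change was -1.09, with an unadjusted p under 0.05, and without Ni replicate 1 it was -0.41.

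The makeup of the Hey transcripts is given as a description, computed after the values of the single genes were seen. Of the summed FPKM of the 3 Hey genes, Heyl made up 43.4%, 47.2% and 46.2% in the controls and 16.4%, 18.8% and 28.9% with Ni. Hey2 made up 14.1%, 9.28% and 10.3% in the controls and 40.1%, 25.2% and 17.6% with Ni. Hey1 took 42.5% to 43.5% in the controls and 43.6% to 56.0% with Ni. The groups did not overlap for any of the 3 shares, although for Hey1 the gap was only 43.5% against 43.6%. Hey2 passed the low-count filter through its Ni libraries alone, so its shares are no independent support for a difference. Shares of a whole are also bound to each other, so that a lower share of Heyl in part restates the higher levels of Hey1 and Hey2. Over all 4 targets, Hes1 included, the share of Heyl did overlap, at 4.76% to 6.88% in the controls and 2.1% to 4.89% with Ni. The level of Heyl overlapped as well. On that wider base the share of Hey1 also overlapped, at 4.48% to 6.73% in the controls and 5.6% to 9.05% with Ni. That of Hey2 did not. These shares rest on 37 counts of Hey1, 14 of Hey2 and 61 of Heyl over the 3 controls and on 62, 46 and 42 over the 3 Ni libraries.

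**Figure D2:**
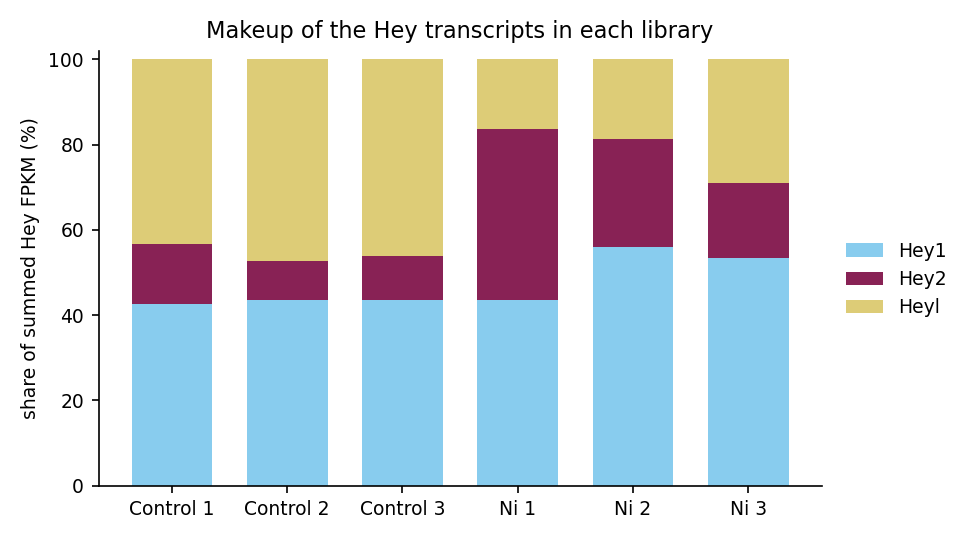
Share of the summed FPKM of Hey1, Hey2 and Heyl that each gene took in each of the 6 libraries, in percent. Heyl is the largest part in the 3 controls, at 43.4% to 47.2%, and a smaller one in the 3 Ni libraries, at 16.4% to 28.9%.

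Cell type markers are given beside these values. The 12 osteoblast genes summed to 4300 to 8840 FPKM in controls, the highest in control replicate 3, and 8900 to 12200 FPKM with Ni. All 12 had an unadjusted p under 0.05 and a positive log2 fold change, where 13.4% of all genes tested had such a p, although none of the 12 passed an adjusted p of 0.05 and the smallest was 0.212 in edgeR. Spp1 and Ibsp led them at 2570 to 6050 FPKM and 397 to 2830 FPKM. The 12 stromal genes summed to 1430 to 2270 FPKM in controls and 2830 to 3430 FPKM with Ni, sums in which Col1a1 is the largest part. They had 9 positive log2 fold changes, and 4 had an unadjusted p under 0.05 as higher and 1 as lower. The lists share genes: Col1a1 is in both the osteoblast and the stromal list, and Pdgfrb in both the mural and the stromal list. The 16 macrophage genes summed to 17400 to 21400 FPKM in controls and 17900 to 18200 FPKM with Ni, sums in which Lyz2 is the largest part. Of these genes 12 had a negative log2 fold change, and 4 had an unadjusted p under 0.05, all as lower. Of the 12 mural genes 11 had a positive log2 fold change and 2 such a p, both as higher, and of the 12 endothelial genes 8 had a negative one and 1 such a p, as lower. No gene of these lists was at 0 in every library. The part of the cell mix in the values of Jag1, Hey1 and Hey2 was not tested.

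Counted together, none of the 9 members tested passed an adjusted p of 0.05 in edgeR, DESeq2 (which gave Hey2 no adjusted p) or limma, and of all 14624 genes tested 0.0% did in edgeR. At an unadjusted p under 0.05 there were 2 members, Hey2 higher and Jag1 lower with Ni, or 22.2% of those tested, where 13.4% of all genes passed, 7.59% as higher and 5.83% as lower. DESeq2 gave 1 member, Hey2, at that limit. The groups did not overlap for 3 members, Hey1 and Hey2 as higher and Jag1 as lower, against 14.7% of all genes, 7.97% as higher and 6.71% as lower. With 9 members these counts carry no test, and Hey2 entered them through the filter as described. The median log2 fold change of the members was 0.145, beside -0.01 over all genes tested. It was closer to 0 under other settings, at 0.0435 without a filter, 0.0375 with at least 10 counts in every library, 0.0344 with DESeq2, 0.0178 on log2(FPKM + 1) without a filter and 0.0791 without control replicate 2.

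**Figure D3:**
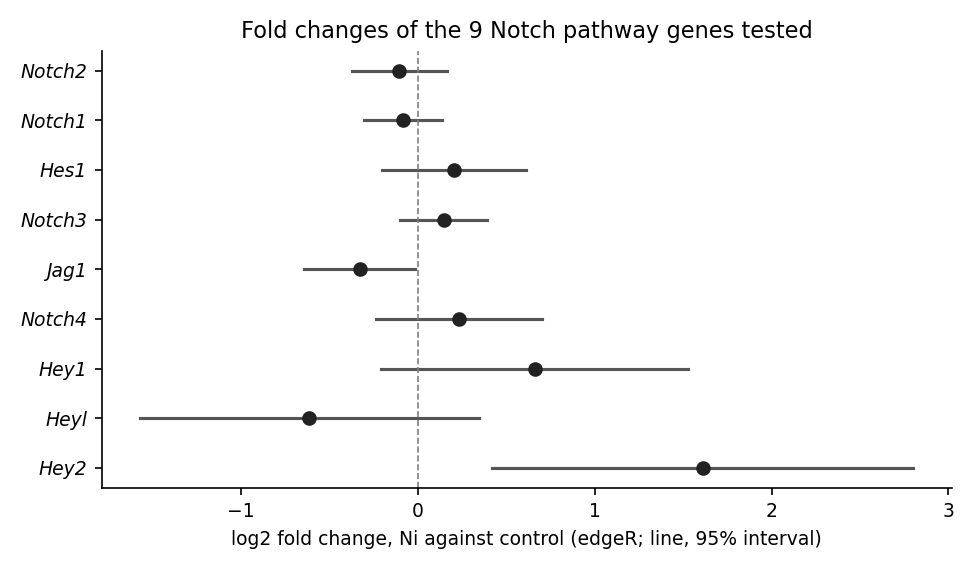
Log2 fold change, Ni against control, of the 9 members tested, as points with 95% intervals from edgeR's fit, ordered by mean FPKM. The intervals of Jag1 and Hey2 exclude 0 before adjustment for the number of genes tested, and the 3 Hey genes have the widest intervals. Hey2 entered the test through its Ni libraries alone, so its interval is no independent support for a difference.

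Single libraries moved the low members most, but none turned a direction. Without control replicate 3 the groups did not overlap for 6 members, now with Hes1 higher and Notch1 and Notch2 lower, while the share over all genes was 43.5%. Without Ni replicate 3 they did not overlap for 5 members, beside 22.0% of all genes. Leaving out control replicate 3 also brought 15.6% of all genes past an adjusted p of 0.05 and 27.9% past the unadjusted limit, yet still no member past the former, and the same 2 members, Jag1 and Hey2, past the latter.

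**Figure D4:**
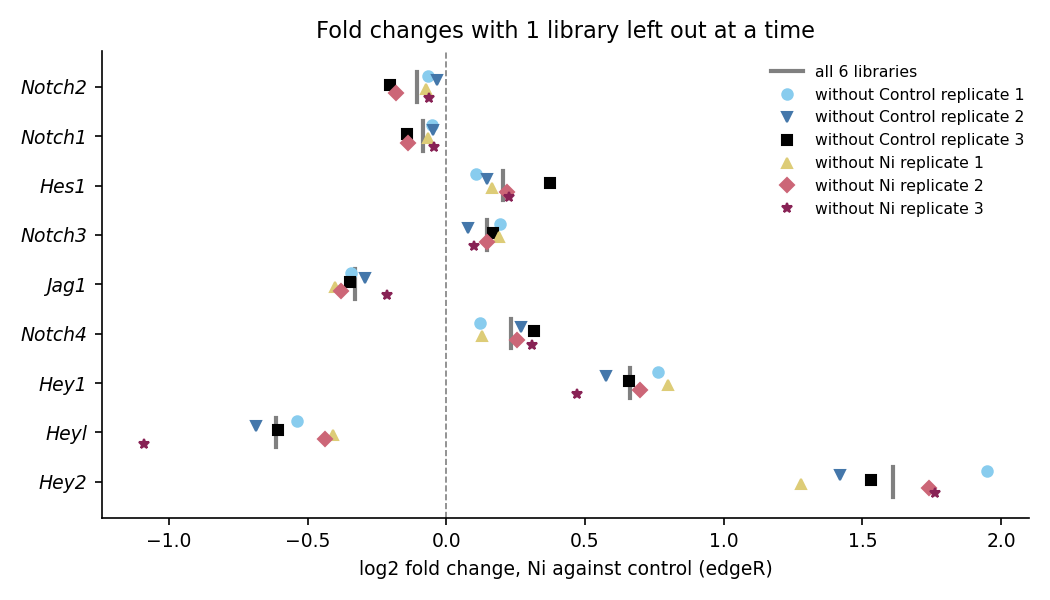
Log2 fold change of each member tested with all 6 libraries (grey bar) and with each library left out in turn (symbols). All points of a gene lie on the same side of 0; Heyl runs from -1.09 to -0.41 and Hes1 from 0.11 to 0.37, the latter value without control replicate 3.

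The rest of the pathway was read from 47 further genes chosen by their role. Of these, 40 were tested, 16 had a positive and 24 a negative log2 fold change, and the median was -0.03. None passed an adjusted p of 0.05 in edgeR. At an unadjusted p under 0.05 there were 5, or 12.5%, which is near the 13.4% of all genes, with 1 higher and 4 lower. The groups did not overlap for 5 of the 40, also 12.5%, beside 14.7% of all genes: Numbl and Dtx3 were higher and Adam17, Psenen and Hdac1 lower in every Ni library. The most abundant gene of each role follows, while others, such as Jag2 at a mean of 0.370 FPKM and Dll4 at 0.473 FPKM, were near the level of the Hey genes. The γ-secretase subunit Psenen stood at 48.6 ± 1.95 FPKM (SD, n = 3) in controls and 44.5 ± 2.37 FPKM (SD, n = 3) with Ni, the corepressor Ctbp1 at 40.6 ± 2.82 and 39.9 ± 3.22 FPKM, and Lfng, which adds sugars to Notch and so alters its response to ligands, at 45.1 ± 7.72 and 36.8 ± 5.15 FPKM. Mib1, the ubiquitin ligase that drives ligand uptake, stood at 12.1 ± 0.711 and 12.1 ± 1.15 FPKM. Among the 4 further genes listed as targets, Hes6 was the most abundant, with a mean of 18.1 ± 3.135 FPKM over all libraries (SD, n = 6). It alone of them was tested, and whether Notch drives Hes6 in these cells was not tested. Dlk2 led the other ligand-like genes at 1.45 ± 0.132 and 1.57 ± 0.322 FPKM. None of these 6 genes had an unadjusted p under 0.05; their log2 fold changes were -0.13, -0.03, -0.29, -0.01, 0.30 and 0.11 in the order given.

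Numbl, a relative of the Notch inhibitor Numb, was the gene above with a positive log2 fold change, at 0.61 (SE 0.19, unadjusted p = 0.00984, adjusted p = 0.301 in edgeR). Its level was 2.11, 2.25 and 3.62 FPKM in the controls and 4.17, 4.04 and 3.97 FPKM with Ni, so the groups did not overlap and control replicate 3 lay nearest to the Ni libraries. Adam17, one of the proteases that can cut Notch, had 31.1, 31.3 and 29.0 FPKM in the controls and 24.8, 23.5 and 26.9 FPKM with Ni, a log2 fold change of -0.28 (SE 0.10, adjusted p = 0.309). The controls lay together above all Ni libraries. Hdac1, a deacetylase of RBPJ corepressor complexes, also stood apart, at 17.9, 18.9 and 18.5 FPKM against 16.9, 15.1 and 15.2 FPKM, a log2 fold change of -0.23 (SE 0.09, adjusted p = 0.344).

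Dtx2, a Deltex ubiquitin ligase, and Psen2, a catalytic presenilin of γ-secretase, followed control replicate 3. Dtx2 had 11.3, 13.0 and 6.07 FPKM in the controls and 4.43, 7.55 and 4.44 FPKM with Ni, a log2 fold change of -0.89 (SE 0.32, adjusted p = 0.341 in edgeR). Psen2 had 16.8, 18.9 and 11.1 FPKM in the controls and 9.60, 13.0 and 10.5 FPKM with Ni, a log2 fold change of -0.50 (SE 0.20, adjusted p = 0.35). For both genes control replicate 3 lay below Ni replicate 2, so the groups overlapped. Without control replicate 3, 6 of the 40 genes passed an adjusted p of 0.05, namely Numbl and Furin as higher and Dtx2, Lfng, Adam17 and Psen2 as lower. Those 6 are 15.0% of the list, beside 15.6% of all genes under the same setting. With all libraries kept, Dtx2 passed in DESeq2 (adjusted p = 0.0447), and Numbl (0.000328) and Psen2 (0.00301) passed in edgeR without a filter on low counts. The share of all genes that passed in those settings is not given here, so these passes cannot be read as particular to the list.

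**Figure D5:**
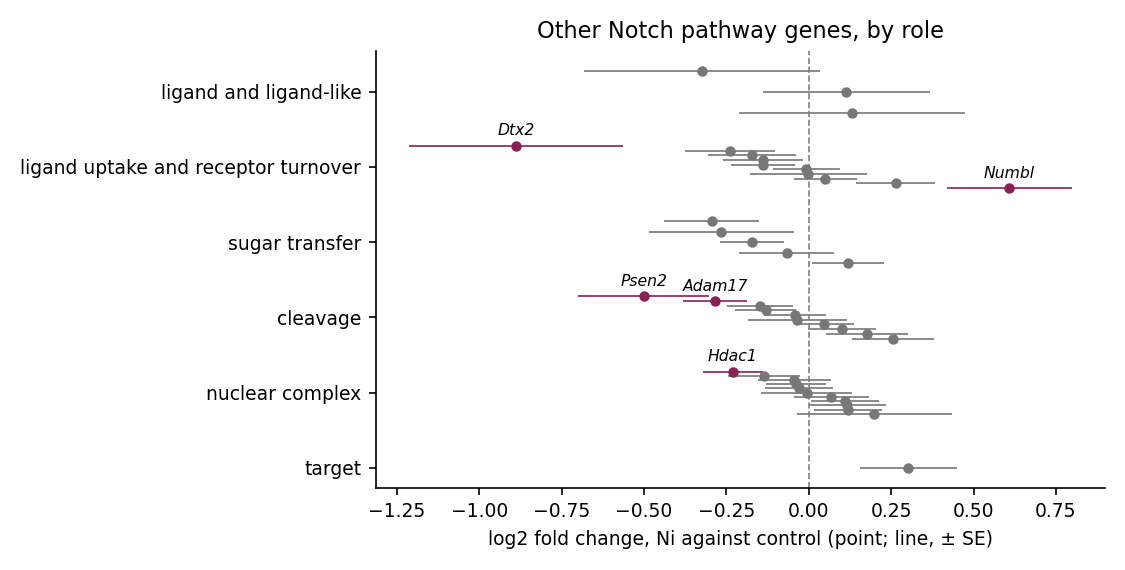
Log2 fold change, Ni against control, with its standard error for the 40 further pathway genes tested, grouped by role, with the 5 at an unadjusted p under 0.05 coloured and named. Dtx2 at -0.89 and Numbl at 0.61 lie farthest out, and no gene passed an adjusted p of 0.05.

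The further ligands and targets that were not tested had very few counts: Dlk1 was at 0 in all 6 libraries, Dll3 and Hes5 had 1 count each in a single library, and Nrarp, a feedback inhibitor that Notch induces, was counted 7, 8 and 5 times without Ni and 10, 1 and 3 times with it. Of the 10935 other genes with a mean of at least 5 CPM, those whose log2 profile over the 6 libraries was nearest to that of Notch2 were Exosc5, Clk3 and Spg7, with root mean square differences of 0.0111, 0.0202 and 0.0208, where Notch2 itself varied with an SD of 0.157. For Jag1 (SD 0.234) they were Ism1, Gbp2 and the pseudogene Gm10243, at 0.0538, 0.054 and 0.0618. For Hes1 (SD 0.206) they were Cd320, Zfp618 and Fndc1, at 0.0333, 0.0367 and 0.0385. None of the 9 is a gene of the lists used here, and each likeness describes 6 libraries alone.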

How the data were processed

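RNA-seq of 3 control and 3 Ni libraries was analysed from gene tables. In them, the counts deposited are raw whole numbers, and the deposited FPKM values equal these counts over gene length and 1 factor per library (largest relative deviation 1.68e-08 among genes of at least 50 counts). The labels name GRCm38; the aligner, counter and strand setting are not given in the sources used here. Gene lengths came from the deposited annotation, and exon overlap from GENCODE M21.

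After filterByExpr and TMM scaling, 14624 genes entered the robust quasi-likelihood fit of edgeR 4.0.16 in R 4.3.3 (prior count 0.125), with p-values adjusted by Benjamini-Hochberg. Alternatives used DESeq2 1.42.0, or limma 3.58.1 after a log2 transform of FPKM plus 1 or plus 0.1. Standard errors are the coefficient over the root of F. Groups were called not overlapping from TMM-scaled log2 CPM, with 2 as its prior count. The fit was first tested on simulated data. Intervals of count ratios cover counting error only. With 3 libraries against 3, depth and replicate number limit the precision.

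The members and lists were chosen with earlier results of these data known. Named are all members, the most abundant further gene of each role, those at an unadjusted p under 0.05, the 3 nearest profiles and the leading markers of each cell type; Thy1, Furin, Dtx3, Jag2, Dll4, the untested genes and the shares within families were chosen after their values were seen.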

Additional observations from a re-analysis of the deposited data

How the results depend on the processing

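The members' directions were the same in all 134 refits of the 9 members tested, and none passed an adjusted p of 0.05; the adjusted p ranged from 0.129 to 0.834 for Hey2, for which DESeq2 gave none, and from 0.165 to 0.838 for Jag1. Of 2 members at an unadjusted p under 0.05, 1 was left under a minimum of 10 counts per library (where Hey2 was not tested), with DESeq2 and on log2(FPKM + 1) or log2(FPKM + 0.1), 0 on log2(FPKM + 1) without a filter, and 1 to 2 with a library left out. With a library left out, 3 to 6 members did not overlap, most without control replicate 3. The share of all genes was 43.5% without that control and 22.0% without Ni replicate 3, and is not given for the rest. At an unadjusted p under 0.05 in edgeR, the share was 13.4% with all libraries and 27.9% without control replicate 3. It is not given for the other settings, so the member counts there cannot be read as particular to the members. The members' median log2 fold change, 0.145, was 0.0435 without a filter, 0.0375 with at least 10 counts, 0.0344 with DESeq2, 0.0881 on log2(FPKM + 1), 0.0178 there without a filter, and 0.0791 to 0.169 with a library left out; Dll1 joins without a filter and Hey2 drops out at 10 counts.

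Of the further genes, 0 passed an adjusted p of 0.05 in edgeR with all libraries. Without a filter 2 passed (Numbl and Psen2), with DESeq2 1 (Dtx2) and with the replicate block 1 (Dtx2, adjusted p = 0.0454). With a library left out 0 to 6 passed. At an unadjusted p under 0.05 there were 2 to 14 with a library left out, most without control replicate 3, beside 5 in all. Among these other settings, the share of all genes is given only without control replicate 3, at 15.6% adjusted and 27.9% unadjusted. The counts under the remaining settings therefore cannot be read as particular to these genes. Near-zero values changed sign: with a library left out Dlk2 ran from -0.0553 to 0.243, Mib1 from -0.0684 to 0.0654 (0.00577 without a filter) and Ctbp1 from -0.101 to 0.0278. The cause was not tested. Deviations from the group means correlated at 0.0104, 0.256 and 0.138 between libraries sharing replicate number 1, 2 and 3. Libraries were not treated as paired in the main fit, since replicate 1 fell short of the limit of 0.1 set for every pair. Replicates 2 and 3 exceeded it, and libraries of unlike number were not compared, so these values do not show that pairing is absent. Under the replicate block in edgeR, 2 members had an unadjusted p under 0.05 and 0 an adjusted one, with a median of 0.146. The order of levels was not refitted with a library left out, since an exact test over 5 libraries cannot go below 0.0625; on TMM counts per kilobase 0 pairs passed, as on FPKM.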
